A study of Homo sapiens with 20 samples.

Results

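The transcripts of 10 genes of glucose breakdown were followed through erythroid differentiation of HUDEP-2 cells, out of the 46425 gene symbols in the deposited tables. The 10 genes were taken by name. They are the hexokinases HK1 and HK2, the phosphofructokinases PFKL, PFKM and PFKP, the pyruvate kinases PKLR and PKM, the lactate dehydrogenase subunits LDHA and LDHB, and bisphosphoglycerate mutase, BPGM. HUDEP-2 is a single immortalised line of erythroid progenitors from umbilical cord blood, and per the labels all samples were wild-type (WT) cells of that line with erythroid differentiation as the treatment. The cells were grown in a serum-free medium with dexamethasone and differentiated in another, which held serum, insulin, heparin and transferrin, and the study describes day 0 as before differentiation. Poly(A) RNA was sequenced on day 0, on days 1 to 8 and on day 12, with 2 libraries a day and 20 in all. Erythropoietin (EPO) was in both media, stem cell factor (SCF) was left out from day 6, and doxycycline, which keeps the immortalising genes of the line switched on, was left out from day 8. A difference from day 0 therefore cannot be told apart from the change of medium, nor, from day 7 on, from the withdrawal of SCF, nor one between day 8 and day 12 from the withdrawal of doxycycline.

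Glycolysis splits glucose into pyruvate in a chain of enzymes, and several steps can be run by more than 1 isozyme, each from its own gene. Hexokinase and phosphofructokinase commit glucose to the pathway, pyruvate kinase makes ATP in the last step, and lactate dehydrogenase turns pyruvate into lactate and restores NAD+. Mature red cells have no mitochondria and live on this pathway alone. They also run a side branch that is particular to them, in which bisphosphoglycerate mutase makes 2,3-bisphosphoglycerate, the small molecule that lowers the oxygen affinity of haemoglobin. Inherited defects of red cell pyruvate kinase and hexokinase cause haemolytic anaemia.

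Levels are given in TPM, the share of a transcript among all transcripts of a library after scaling for length, which lets genes be compared, and are summed over all transcripts of a gene. Changes between days are log2 fold changes of read counts scaled by TMM (the trimmed mean of M values), each with its standard error (SE), and adjusted p is the Benjamini-Hochberg value of edgeR's quasi-likelihood test over all 16784 genes tested. The 2 libraries of a day lie in different tables and carry no replicate number. The library from the tables of separate days is called library A and the library from the table of all days library B, and paired values below are given in that order. The libraries held 52131713 to 70358198 counts, so that a count of 0 allows up to 0.0426 to 0.0575 CPM (counts scaled to a fixed library total), counting error only.

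Several features of whole libraries touch the results. Ribosomal RNA took 18.5% and 17.5% of the counts in library A of days 7 and 8 and 1.03% to 4.08% in the other 18 libraries. Globin genes took 2.91% and 2.90% of all TPM on day 0, 30.1% and 25.3% on day 8, and 59.4% and 63.0% on day 12. With TMM scaling the median log2 fold change of all genes was 0.0 between day 8 and day 0 and −0.20 between day 12 and day 8, against −0.36 and −1.03 with library totals and −0.34 and −0.68 on log2(TPM + 1). A gene near these medians can therefore change direction with the scaling. All 9 erythroid markers were detected on every day. They summed to 31330 to 31920 TPM on day 0 and 560600 to 611900 TPM on day 12. Most of this was the globin genes HBA1, HBA2 and HBB. Mean levels on days 0, 8 and 12 were 213, 276 and 122 TPM for GATA1 and 488, 776 and 556 TPM for KLF1. TFRC was at 2216, 2842 and 358 TPM and EPOR at 72.9, 206 and 168 TPM. ALAS2 was at 277, 1590 and 1390 TPM and SLC4A1 at 21.2, 1984 and 1330 TPM. The 4 lymphoid markers were at or under 3 counts in both libraries on every day. The 5 mast cell markers summed to 1151 to 2132 TPM on day 0, most of it TPSAB1 and TPSB2. The sum was 1.56 to 8.10 TPM on day 8 and 0.239 to 1.39 TPM on day 12. On day 8 MS4A2 and CPA3 were at or under 3 counts in both libraries. In bulk RNA, fewer cells of a type and less RNA per cell cannot be told apart.

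Between day 0 and day 8, BPGM, PFKM and HK1 were called higher, HK2, PFKP, PKM, LDHA and LDHB fell, and PFKL and PKLR did not pass the test. PKLR was called lower there in 3 of 16 alternative fits. Between day 8 and day 12 BPGM, PKM and HK1 were called higher and the remaining 7 lower. Both calls of HK1 depended on the scaling. On day 4 the calls against day 0 were HK1 and PFKM higher and LDHA lower. Of these, HK1 was lost with library totals, on log2(TPM + 1) and on log2(TPM + 0.1), and LDHA with library totals. The largest increase by day 8 was that of BPGM at 9.34-fold and the largest decrease that of PKM at 150-fold, the size of which depended on library A of day 8.

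On day 4, 3 of the 10 genes were called against day 0, where 5.28% of all genes tested were called, 2.93% as higher and 2.35% as lower. On day 8, 8 of the 10 were called against day 0, where 37.1% of all genes were called, 17.7% as higher and 19.4% as lower. On day 12 all 10 were called against day 8, where 57.2% of all genes were called, 23.8% as higher and 33.4% as lower. The median log2 fold change of the 10 was −0.25, −1.17 and −1.71 in the 3 comparisons, beside −0.01, 0.0 and −0.20 over all genes. The libraries of the days compared did not overlap for 8, 9 and 10 of the 10 genes, and for 49.0%, 68.0% and 74.5% of all genes. The 10 genes all differed between some of the 10 days, as did 66.0% of all genes, with adjusted p from 1.05e-08 for PFKP to 0.0351 for PFKL. With library A of day 8 left out, the calls of day 8 against day 0 and of day 12 against day 8 were unchanged. Between day 8 and day 12, the call of PFKL was lost without library A of day 12. That of HK2 was lost without library B of day 8 and without library B of day 12. Of the 3 calls on day 4, those of HK1 and LDHA were lost whenever any library of days 0 or 4 was left out, and only PFKM kept its call in each of these fits. When the set of tables was fitted as a block, 8 of the 10 were called on day 4, BPGM, HK2, LDHB, PFKP and PKM in addition. On day 8 the block gave 9 calls, PKLR in addition.

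**Figure D1:**
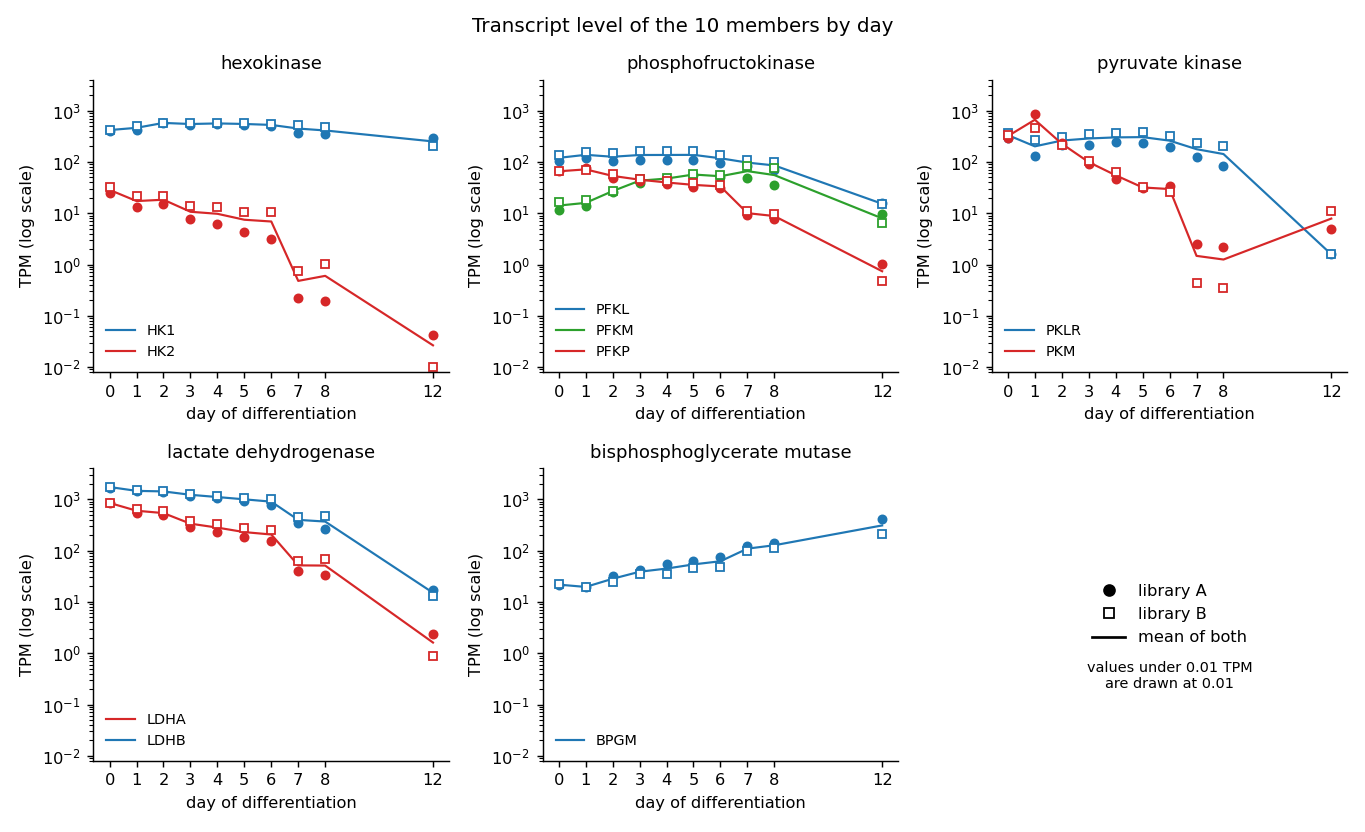
Level of the 10 genes in TPM on a log scale against the day of differentiation, with filled circles for library A, open squares for library B, a line through the mean of both and values under 0.01 TPM drawn at 0.01. BPGM is at 21.4 and 22.1 TPM on day 0 and at 405 and 214 TPM on day 12, while HK2, PFKP, LDHA and LDHB are lower at each of days 0, 4, 8 and 12 than at the day before it in that series, and PKM is lowest on day 8.

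**Figure D2:**
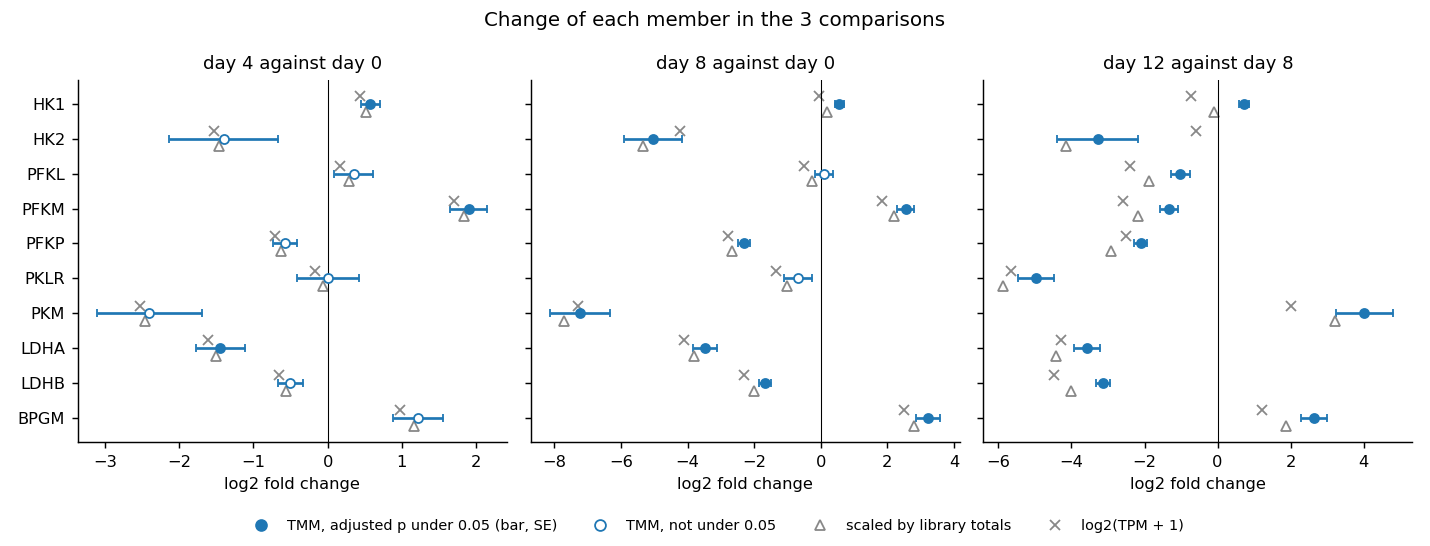
Log2 fold change of each gene in the 3 comparisons, with circles for the TMM fit (bars, SE; filled where adjusted p is under 0.05), triangles for scaling by library totals and crosses for log2(TPM + 1). HK1 is to the right of 0 between day 12 and day 8 with TMM (0.73) and to the left with library totals (−0.11) and TPM (−0.72).

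Pyruvate kinase is made by PKLR, whose erythroid form is the red cell enzyme and whose other form is that of liver, and by PKM, whose forms M1 and M2 serve muscle and proliferating or other cells. The R and L forms of PKLR start from separate promoters, and the M1 and M2 forms of PKM differ by which of 2 alternative exons is kept. The 2 exons are shown because most PKM TPM was assigned to the M2 form. They are coding exons of 167 bases on the minus strand, 62.9% identical, in hg38 with GENCODE 44, at chr15:72203022-72203188 for M1 and chr15:72202454-72202620 for M2, and capitals mark the 62 bases at which they differ.
PKM M1 exon: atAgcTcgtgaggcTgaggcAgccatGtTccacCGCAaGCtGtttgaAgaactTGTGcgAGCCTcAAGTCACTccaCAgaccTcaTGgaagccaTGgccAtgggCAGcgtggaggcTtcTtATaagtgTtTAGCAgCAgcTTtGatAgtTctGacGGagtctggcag
PKM M2 exon: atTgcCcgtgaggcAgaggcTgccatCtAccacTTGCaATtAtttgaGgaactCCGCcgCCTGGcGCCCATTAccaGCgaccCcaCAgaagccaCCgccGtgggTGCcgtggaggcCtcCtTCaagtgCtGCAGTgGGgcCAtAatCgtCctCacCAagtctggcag

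PKM and PKLR were alike on day 0 and then parted. PKM was at 296 and 342 TPM on day 0, 871 and 456 on day 1, 238 and 214 on day 2, 91.8 and 106 on day 3, 46.0 and 63.8 on day 4, 30.9 and 32.7 on day 5, 33.2 and 26 on day 6, 2.52 and 0.429 on day 7, 2.16 and 0.341 on day 8, and 4.85 and 10.9 on day 12. Day 1 is thus the highest in both libraries and days 7 and 8 the lowest. Its fall by day 8 had a log2 fold change of −7.23 ± 0.89 (adjusted p = 5.38e-05), on counts of 187 and 30 left on day 8. With 1 library of days 0 or 8 left out it was −9.01 to −6.45, and −9.01 was the value without library A of day 8. The day 12 libraries held 507 and 1356 counts, both above both day 8 libraries, and the rise from day 8 was 4.02 ± 0.78 (adjusted p = 0.000595), and PKM was higher on day 12 under each scaling. The value was 2.02 on log2(TPM + 1) and 3.04 to 5.78 with 1 library of days 8 or 12 left out, where 5.78 was that without library A of day 8. On day 4 the log2 fold change was −2.40 ± 0.70 and did not pass (adjusted p = 0.0691), although the libraries of days 0 and 4 did not overlap. On day 1, where PKM was highest, the mast cell markers summed to 1090 to 2879 TPM, after 1151 to 2132 TPM on day 0. On day 8, where PKM was lowest, they summed to 1.56 to 8.10 TPM. TPSAB1 and TPSB2 made up most of the sums on days 0 and 1. TPSAB1 was at 1009 and 527 TPM on day 0 and 1390 and 510 TPM on day 1. TPSB2 was at 1114 and 614 TPM, then 1485 and 577 TPM. MS4A2 fell from 8.00 and 3.66 to 0.915 and 0.873 TPM. CPA3 was at 0.815 and 6.04 TPM, then 3.20 and 2.29 TPM. HDC was at or under 3 counts in both day 1 libraries. The 5 monocyte and macrophage markers summed to 6.54 to 10.0 TPM on day 0 and 15.7 to 31.9 TPM on day 1. Most of this was CD68, at 8.51 and 5.76 TPM on day 0 and 30.6 and 14.9 TPM on day 1. CD14 was at 0.297 and 0.135 TPM, then 0.107 and 0.385 TPM. LYZ was at 1.19 and 0.652 TPM, then 1.15 and 0.461 TPM. CD163 was at or under 3 counts in both libraries on both days. The sum was later 2.06 to 3.51 TPM on day 8 and 2.84 to 4.31 TPM on day 12, with CSF1R and LYZ at or under 3 counts in both day 12 libraries. Of the 5 monocyte and macrophage markers, CD68 was called higher on day 12 than on day 8 (1.69 ± 0.44, adjusted p = 0.00519). That is with TMM scaling. In TPM the 2 days overlapped, with CD68 at 3.25 and 1.89 on day 8 and 3.86 and 2.55 on day 12. CD14 was at 2.53 ± 1.28 and did not pass (adjusted p = 0.107). Of the 5 megakaryocyte markers, PF4, PPBP and GP1BA were at or under 3 counts in both libraries on every day. GP9 was so on days 0, 1, 8 and 12. ITGA2B was at 68.9 and 10.7 TPM on day 0, 69.8 and 7.43 on day 1, 0.292 and 0.14 on day 8, and 1.03 and 0.465 on day 12. The part of other cell types in the PKM values was not tested.

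PKLR was at 293 and 374 TPM on day 0, 129 and 273 on day 1, 209 and 313 on day 2, 215 and 358 on day 3, 240 and 362 on day 4, 232 and 377 on day 5, 198 and 321 on day 6, 124 and 230 on day 7, 82.7 and 202 on day 8, and 1.59 and 1.57 on day 12. Library B was above library A on 9 of the 10 days, by up to 2.44-fold on day 8, so the spread within a day is wide. The log2 fold change was 0.00106 ± 0.42 on day 4 and −0.68 ± 0.42 on day 8, and neither passed (adjusted p = 1.0 and 0.224). On day 8 PKLR was called lower on log2(TPM + 1), on log2(TPM + 0.1) and with the set of tables as a block. The libraries of days 0 and 8 did not overlap, so the day 8 result depended on the fit. Between day 8 and day 12 PKLR fell by 4.98 ± 0.50 on the log2 scale (adjusted p = 1.65e-06), or 31.5-fold. This was the largest fall of the 10 genes in that comparison.

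As a share of pyruvate kinase TPM, PKLR took 49.8% and 52.2% on day 0, 12.9% and 37.5% on day 1, 46.7% and 59.3% on day 2, 70.1% and 77.1% on day 3, 83.9% and 85.0% on day 4, 97.5% and 99.8% on day 8, and 24.6% and 12.7% on day 12. The family thus passed from an even mixture to almost pure PKLR and then to mostly PKM, while its summed level went from 589 and 716 TPM on day 0 to 84.9 and 203 on day 8 and 6.44 and 12.4 on day 12. The shares are descriptions, since 2 libraries against 2 cannot go below p = 0.33 in an exact permutation test.

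**Figure D3:**
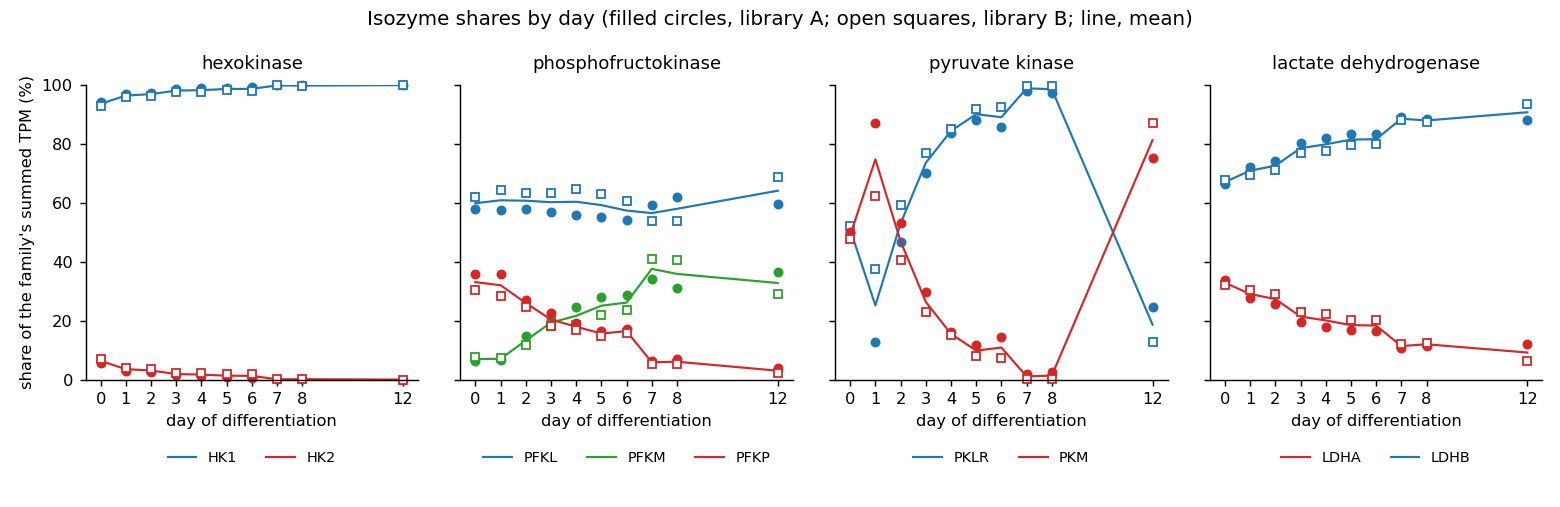
Share of each isozyme in the summed TPM of its family, in percent, against the day of differentiation, with filled circles for library A, open squares for library B and a line through the mean. The PKLR share is 97.5% and 99.8% on day 8 and 24.6% and 12.7% on day 12, and the PFKM share goes from 6.29% and 7.71% on day 0 to 31.1% and 40.7% on day 8.

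Of the 91 member transcripts tested, edgeR called 0 on day 4, with 11 at an unadjusted p under 0.05 and 8 called by DESeq2. By edgeR, 2 were higher and 5 lower on day 8, and 5 were higher and 10 lower on day 12 than on day 8. Of all 75285 transcripts tested, 0.0903% were called on day 4 (0.0757% higher, 0.0146% lower), 2.04% on day 8 (0.914% higher, 1.13% lower) and 14.2% on day 12 (2.85% higher, 11.4% lower), and 10.3% differed between any days. The erythroid form led PKLR on every day. Its transcript NM_000298 (chr1:155289293-155301438, minus strand) held 92.9% to 98.8% of PKLR TPM in the 18 libraries of days 0 to 8 and all of it on day 12. The liver-type transcript NM_181871, which starts further downstream at base 155300952, held at most 6.35%. The 2 promoters are shown for that reason, as the exon-free stretch of the 250 bases before each start, from the RefSeq promoter table (GRCh38.p14) and on the minus strand, at chr1:155301439-155301688 for R and chr1:155301002-155301202 for L. Capitals mark GATAA on either strand, the core letters bound by GATA factors, and the palindrome CACGTG, an E-box.
PKLR R promoter: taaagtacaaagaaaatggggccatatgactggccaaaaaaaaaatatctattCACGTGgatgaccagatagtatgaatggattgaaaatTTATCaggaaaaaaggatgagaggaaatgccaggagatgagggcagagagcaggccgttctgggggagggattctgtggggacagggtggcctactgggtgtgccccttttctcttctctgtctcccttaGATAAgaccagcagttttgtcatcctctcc
PKLR L promoter: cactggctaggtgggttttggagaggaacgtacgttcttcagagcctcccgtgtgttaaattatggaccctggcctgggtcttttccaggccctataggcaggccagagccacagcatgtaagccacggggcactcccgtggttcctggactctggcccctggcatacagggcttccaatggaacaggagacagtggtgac
The R window holds 2 matches of GATAA and 1 of CACGTG, and the L window holds none of either. Of 35116 windows of 250 bases before the starts in that table, 20.4% hold GATAA and 6.34% hold CACGTG. These are matches of letters only.

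For PKM, the M2 transcript NM_002654 (chr15:72199029-72231190, minus strand) held 94.7% and 91.2% of PKM TPM on day 0 and 79.8% and 85.9% on day 12. The M1 transcript NM_182471, of the same span, held 1.49% and 1.86% on day 0 and 4.43% and 9.82% on day 12. On day 8, when library B had 30 counts over all PKM transcripts, NM_002654 was at 2.15 TPM in library A and 0.0 TPM in library B, where NM_182470, another M1 transcript, held 55.8% of PKM TPM on 17 counts. In the fit of 75285 transcripts, NM_002654 had a log2 fold change of −7.44 ± 2.12 by day 8 and did not pass (adjusted p = 0.111), and 3.63 ± 1.78 between day 8 and day 12 (adjusted p = 0.216). NM_182471 was called lower on day 8 than on day 0 (adjusted p = 0.00606) and higher on day 12 than on day 8 (adjusted p = 0.00169), at 0.215 and 1.07 TPM after 0.0 in both day 8 libraries.

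Hexokinase came almost wholly from HK1, and the small part of HK2 was lost on the way. HK1 is the hexokinase of red cells and brain, and HK2 the form of muscle and of many proliferating cells. HK1 also has an erythroid promoter of its own, whose first exon replaces the one that codes for the mitochondrial anchor of the general form. The coding parts of both first exons are shown because most HK1 transcripts carried the erythroid one. They lie on the plus strand of chromosome 10 in hg38 with GENCODE 44, at chr10:69315955-69316014 for the erythroid exon and chr10:69318948-69319010 for the general exon, and capitals mark the start codon.
HK1 erythroid exon: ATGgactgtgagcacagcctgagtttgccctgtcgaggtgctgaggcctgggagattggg
HK1 general exon: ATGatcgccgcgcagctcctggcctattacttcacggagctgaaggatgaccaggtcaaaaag

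HK1 was at 408 and 428 TPM on day 0, 560.3 and 566 on day 4, 351 and 470.0 on day 8, and 297 and 205 on day 12, and over all 20 libraries it stayed between 205 and 587 TPM, the narrowest range of the 10 genes at 2.87-fold. Its log2 fold change was 0.58 ± 0.13 on day 4 (adjusted p = 0.0221) and 0.56 ± 0.13 on day 8 (adjusted p = 0.00478), each against day 0. The call on day 4 was lost with library totals and on log2(TPM + 1). The call on day 8 was lost with library totals (0.19) and the direction turned on log2(TPM + 1), at −0.04 (adjusted p = 0.893). Between day 8 and day 12 HK1 was called higher at 0.73 ± 0.13 (adjusted p = 0.000308), but its direction was −0.11 with library totals (adjusted p = 0.656) and −0.72 on log2(TPM + 1), where it was called lower (adjusted p = 0.00594). Both day 12 libraries were below both day 8 libraries in TPM.

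HK2 was at 24.3 and 32.6 TPM on day 0, 6.06 and 13.4 on day 4, 0.194 and 1.01 on day 8, and 0.0432 and 0.0 on day 12. Each of these days lies wholly below the earlier one, and day 12 rests on 12 counts in library A and 0 in library B. HK2 fell by 5.03 ± 0.87 on the log2 scale between day 0 and day 8 (adjusted p = 0.000676). Its fall between day 8 and day 12 (−3.28 ± 1.11, adjusted p = 0.0215) was lost without library B of day 8 (adjusted p = 0.235) and without library B of day 12 (adjusted p = 0.145). The share of HK1 in hexokinase TPM was 94.4% and 92.9% on day 0, 98.9% and 97.7% on day 4, and 99.9% and 99.8% on day 8.

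Of HK1 TPM, the erythroid transcript NM_033496 (chr10:69315854-69401882) held 83.4% and 80.1% on day 0, 85.4% and 75.4% on day 4, 79.8% and 80.9% on day 8, and 71.0% and 72.1% on day 12. The general transcript NM_000188 (chr10:69318847-69401882) held 14.6% and 15.2% on day 0 and 26.2% and 25.6% on day 12. In the transcript fit NM_000188 was called higher on day 12 than on day 8 (1.03 ± 0.26, adjusted p = 0.0186), and NM_033496 was not (0.23 ± 0.13, adjusted p = 0.309). The call of NM_000188 was lost with library totals (adjusted p = 0.25) and without either library of day 8 (adjusted p = 0.0822 and 0.127) or library A of day 12 (adjusted p = 0.127), and its direction turned on log2(TPM + 1), at −0.08. That the 2 transcripts changed unequally was not tested.

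The 3 phosphofructokinase genes changed places below PFKL. Red cells are known to carry the liver (PFKL) and muscle (PFKM) subunits, and PFKP is the platelet type. PFKM was at 11.6 and 16.6 TPM on day 0, 47.2 and 47.5 on day 4, 35.5 and 75.3 on day 8, and 9.53 and 6.36 on day 12. It rose by day 4 (1.90 ± 0.25, adjusted p = 0.000905) and was 5.83-fold higher on day 8 than on day 0 (2.54 ± 0.26, adjusted p = 1.21e-05), with no overlap between the libraries of those days. Between day 8 and day 12 it fell by 1.32 ± 0.25 (adjusted p = 0.000427).

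PFKP was at 65.8 and 65.5 TPM on day 0, 36.6 and 43.0 on day 4, 7.87 and 9.74 on day 8, and 1.00 and 0.476 on day 12, with every later day below the earlier ones of these 4. It fell by 2.30 ± 0.17 by day 8 (adjusted p = 1.25e-06) and by a further 2.1 ± 0.18 by day 12 (adjusted p = 3.48e-07). PFKL was at 106 and 134 TPM on day 0, 107 and 167 on day 4, 70.9 and 100.0 on day 8, and 15.6 and 15 on day 12, and while days 0 and 4 overlapped, both day 8 libraries were below day 0 in TPM but not in TMM-scaled counts. Its log2 fold change on day 8 was 0.09 ± 0.26 (adjusted p = 0.817), with −0.27 under library totals and −0.50 on log2(TPM + 1). By day 12 PFKL fell by 1.02 ± 0.27 (adjusted p = 0.00507), a call lost at adjusted p = 0.0507 without library A of day 12.

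PFKL held 53.7% to 64.8% of phosphofructokinase TPM in all libraries of days 0 to 8, and the exchange was between the other two. PFKM went from 6.29% and 7.71% on day 0 to 24.8% and 18.5% on day 4 and 31.1% and 40.7% on day 8, and PFKP from 35.8% and 30.4% to 19.2% and 16.7% and then to 6.89% and 5.26%. On day 12 the shares were 59.6% and 68.7% for PFKL, 36.5% and 29.1% for PFKM and 3.85% and 2.18% for PFKP. With curated RefSeq transcripts alone, the change in the PFKL share between day 0 and day 8 turned from −1.9 (pooled SD 4.47) to 1.65 percentage points. The leading PFKL transcript, NM_002626, held 53.4% to 97.8% of PFKL TPM and the leading PFKM transcript, NM_001354742, 9.47% to 87.4% of PFKM TPM, so the split of PFKM over its 33 transcripts differed widely between libraries.

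The levels of both lactate dehydrogenase genes were lower on day 8 than on day 0 and lower again on day 12, with the larger fold for LDHA by day 8. LDHA codes for the muscle type subunit and LDHB for the heart type, which is the main one in red cells. LDHA was at 862 and 837 TPM on day 0, 233 and 329 on day 4, 33.7 and 68.6 on day 8, and 2.34 and 0.888 on day 12. LDHB was at 1697 and 1775 TPM on day 0, 1068 and 1147 on day 4, 259 and 478 on day 8, and 17.2 and 13.0 on day 12. For either gene no library of a later day among these 4 reached the level of an earlier one.

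LDHA fell by 1.45 ± 0.33 on the log2 scale by day 4 (adjusted p = 0.0221), by 3.48 ± 0.35 by day 8 (adjusted p = 1.25e-05) and by a further 3.58 ± 0.37 between day 8 and day 12 (adjusted p = 1.87e-06). For LDHB the value on day 4 was −0.50 ± 0.17 and did not pass (adjusted p = 0.115), and it fell by 1.67 ± 0.17 by day 8 (adjusted p = 1.51e-05) and by 3.13 ± 0.19 from day 8 to day 12 (adjusted p = 1.08e-08). The difference between the falls of the 2 genes was not tested. The LDHB share of lactate dehydrogenase TPM was 66.3% and 67.9% on day 0, 82.1% and 77.7% on day 4, 88.5% and 87.5% on day 8, and 88.0% and 93.6% on day 12, so that LDHB led in every library. The family held 2560 to 2612 TPM on day 0 and 13.9 to 19.5 TPM on day 12. LDHA, LDHB and GAPDH have processed pseudogenes, and how reads that fit several places were assigned is not given in the sources used here.

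BPGM, the enzyme of the 2,3-bisphosphoglycerate branch, rose by day 8 and again by day 12. It was at 21.4 and 22.1 TPM on day 0, 19.8 and 19.4 on day 1, 31.9 and 24.6 on day 2, 41.9 and 35.6 on day 3, 54.9 and 34.5 on day 4, 62.8 and 45.0 on day 5, 76.3 and 47.8 on day 6, 121 and 97.1 on day 7, 142 and 112 on day 8, and 405 and 214 on day 12. Both libraries of day 12 lie above all others, and library A was above library B on 9 of the 10 days. BPGM was not called on day 4 (1.22 ± 0.34, adjusted p = 0.0533) and rose by 3.22 ± 0.36 by day 8 (adjusted p = 2.54e-05) and by 2.65 ± 0.35 from day 8 to day 12 (adjusted p = 2.05e-05). Its direction in these comparisons was the same with every scaling, at 1.86 with library totals and 1.21 on log2(TPM + 1) between day 8 and day 12.

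The leading transcript of BPGM, NM_001724 (chr7:134646853-134679816, plus strand), held 58.7% to 95.1% of its TPM and was called higher in both late comparisons, by 2.59 ± 0.38 on day 8 (adjusted p = 0.00359) and 2.36 ± 0.37 between day 8 and day 12 (adjusted p = 0.00085). As a share of the summed TPM of the 10 genes, BPGM held 0.565% and 0.548% on day 0, 14.4% and 7.41% on day 8 and 53.7% and 45.8% on day 12. Over the same days the sum of the 10 went from 3786 and 4026 TPM through 984.5 and 1518 TPM to 754.8 and 466.8 TPM, while globin genes went from 2.91% and 2.90% to 59.4% and 63.0% of all TPM.

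The order of the levels turned over from day 0 to day 12. On day 0 it ran LDHB, LDHA, HK1, PKLR, PKM, PFKL, PFKP, HK2, BPGM and PFKM, and only PKLR and PKM had overlapping values. On day 8 HK1 and LDHB overlapped at the top, and PKLR, BPGM, PFKL, PFKM and LDHA followed with values of 33.7 to 202 TPM, where PKLR overlapped both BPGM and PFKL and no gap divided the 5. PFKP, PKM and HK2 were at 9.74 TPM or lower, and PKM and HK2 overlapped. On day 12 BPGM and HK1 led with overlapping values of 205 to 405 TPM. The next were PFKL and LDHB at 13.0 to 17.2 TPM, which overlapped, then PFKM and PKM, which overlapped, and LDHA, PKLR, PFKP and HK2 were at 2.34 TPM or lower.

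The rest of glycolysis moved mostly down by day 8. Of 17 other glycolytic enzymes, 13 were tested, and edgeR called 10 lower and 0 higher on day 8 than on day 0 (1 higher at an unadjusted p under 0.05). The median log2 fold change was −1.27, and the counts were the same with library totals and on log2(TPM + 1). Of all genes tested, edgeR called 19.4% lower and 17.7% higher in that comparison. The largest falls were those of glucose phosphate isomerase GPI (−3.78 ± 0.49, from 190 and 251 to 5.33 and 16.3 TPM), enolase ENO1 (−3.64 ± 0.21) and aldolase ALDOC (−2.37 ± 0.44). GAPDH, which makes NADH in the middle of the pathway, fell by 1.29 ± 0.14 from 3914 and 3895 TPM to 922 and 1204 TPM (adjusted p = 2.59e-05).

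Between day 8 and day 12, 5 of these 13 enzymes were called higher and 6 lower, beside 23.8% and 33.4% of all genes tested. The calls were 2 and 7 with library totals and 1 and 9 on log2(TPM + 1). The higher calls with the largest values were the hexokinase HK3, ALDOA (1.91 ± 0.28) and ALDOC (1.63 ± 0.43). On log2(TPM + 1) the calls of ALDOA (0.44, adjusted p = 0.151) and ALDOC (0.12, adjusted p = 0.829) were lost, and ENO1 (0.75) and ADPGK (0.39) turned to −0.74 and −0.97. HK3, a further hexokinase, had 0 counts in both day 8 libraries and 42 and 71 on day 12, at least 33.5-fold higher with day 8 set to 3 counts a library, and its call was lost without library B of day 12 (adjusted p = 0.0778) and with DESeq2 (adjusted p = 0.217). The largest falls were those of ENO2 (−3.49 ± 0.76), GPI (−2.78 ± 0.49) and ENO3 (−1.88 ± 0.33). GAPDH fell by 0.51 ± 0.14 (adjusted p = 0.00735).

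Calls among glucose and lactate transporters went both ways. SLC2A1 (GLUT1), the glucose transporter of red cells, was at 50.3 and 58.5 TPM on day 0, 512 and 329 on day 8 and 944 and 744 on day 12, and rose by 3.59 ± 0.31 (adjusted p = 3.94e-06) and then by 2.41 ± 0.30 (adjusted p = 1.12e-05). Of the 9 of 10 transporters tested, 3 were higher and 3 lower on day 8 than on day 0, beside 17.7% and 19.4% of all genes. On day 12, 4 were higher and 3 lower than on day 8, beside 23.8% and 33.4% of all genes. SLC2A4 (1.67 ± 0.29) and BSG (0.89 ± 0.22), the partner protein of the lactate carriers, were also higher on day 8, and SLC2A3 (−4.90 ± 0.47) and the lactate carriers SLC16A1 (−1.99 ± 0.39) and SLC16A3 (−1.74 ± 0.48) were lower. SLC16A1 was higher again on day 12 (2.33 ± 0.39), as was BSG (1.5 ± 0.22), and SLC2A3, SLC16A7 (−4.69 ± 0.39) and SLC16A3 (−1.45 ± 0.51) were lower, with 12 and 12 counts of SLC2A3 on day 8 and 0 in both day 12 libraries, at least 2.1-fold lower with day 12 set to 3 counts a library. SLC2A3 and SLC2A14 are close copies whose reads may have been split between them, and SLC2A14 had 0 and 112 counts on day 8. With library totals the calls were 2 higher and 3 lower on day 8, and 3 higher and 4 lower on day 12. On log2(TPM + 1) the calls of BSG on day 8 (0.29, adjusted p = 0.172) and day 12 (0.042, adjusted p = 0.863) and of SLC16A1 on day 12 (0.87, adjusted p = 0.0985) were lost, and SLC2A4 on day 12 went from 1.39 to −0.01. The call of SLC16A3 was lost in 3 of 16 alternatives on day 8 and in 5 of 15 on day 12.

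Among 5 enzymes of fructose 2,6-bisphosphate, the activator of phosphofructokinase, PFKFB4 was the 1 call on day 8 (−4.05 ± 0.34, from 13.7 and 12 to 0.424 and 0.511 TPM), and it fell again by day 12 (−1.17 ± 0.34). PFKFB1 (3.13 ± 0.60), TIGAR (2.94 ± 1.18, on 10 and 0 counts on day 8 and 18 and 24 on day 12) and PFKFB3 (0.78 ± 0.31) were called higher on day 12 than on day 8. PFKFB1 was low, at 0.366 and 0.478 TPM on day 8 and 1.48 and 1.24 TPM on day 12. The call of TIGAR was lost in 7 of 14 alternatives (adjusted p up to 0.518), its value was 1.96 to 8.49 with 1 library left out and 8.49 without library A of day 8, and PFKFB3 turned to −0.03 with library totals and −0.59 on log2(TPM + 1). Among the pentose phosphate enzymes, TALDO1 (1.15 ± 0.22) and PGD (0.68 ± 0.14) were higher and RPE (−0.50 ± 0.15) lower on day 8 than on day 0, where the call of PGD was lost with library totals (0.31, adjusted p = 0.2) and on log2(TPM + 1) (0.077, adjusted p = 0.762). That of RPE on day 8 was lost in 5 of 16 alternatives. Between day 8 and day 12, TALDO1 (1.43 ± 0.22) was called higher and RPE (−2.05 ± 0.16) lower, with TALDO1 at −0.01 on log2(TPM + 1). Over all genes tested, 37.1% were called on day 8 against day 0 and 57.2% on day 12 against day 8.

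Of 13 genes for the entry of pyruvate into mitochondria, 3 were higher and 5 lower on day 8 than on day 0. All genes tested had 17.7% and 19.4% there. On day 12, 4 were higher and 8 lower than on day 8, against 2 and 9 with library totals. All genes tested had 23.8% higher and 33.4% lower in the TMM fit. Of the 4 kinases that switch pyruvate dehydrogenase off, PDK4 (3.31 ± 0.69) and PDK2 (1.49 ± 0.27) rose by day 8. PDK4 was low, at 0.119 and 0.5 TPM on day 0 and 2.56 and 1.35 TPM on day 8. PDK1 (0.23 ± 0.18) and PDK3 (−0.97 ± 0.77) did not pass. The pyruvate carrier subunit MPC2 also rose (1.87 ± 0.17). The phosphatases that switch it on, PDP2 (−2.21 ± 0.29) and PDP1 (−0.87 ± 0.21), and its subunit DLAT (−0.98 ± 0.24) fell. By day 12 PDK4 (2.86 ± 0.65), PDP2 (1.90 ± 0.29) and PDK2 (0.75 ± 0.26) were called higher and DLAT (−2.89 ± 0.26), PDP1 (−2.48 ± 0.23) and PDK3 (−2.38 ± 0.83) lower, and PDK2 turned to −0.06 with library totals and −0.62 on log2(TPM + 1), where the call of PDP2 was lost (0.29, adjusted p = 0.42). PDK1, the fourth higher call on day 12 (0.75 ± 0.18), turned to −0.05 and −0.52. The counts of list genes beside those of all genes are descriptions, and nothing is taken as particular to a list.

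**Figure D4:**
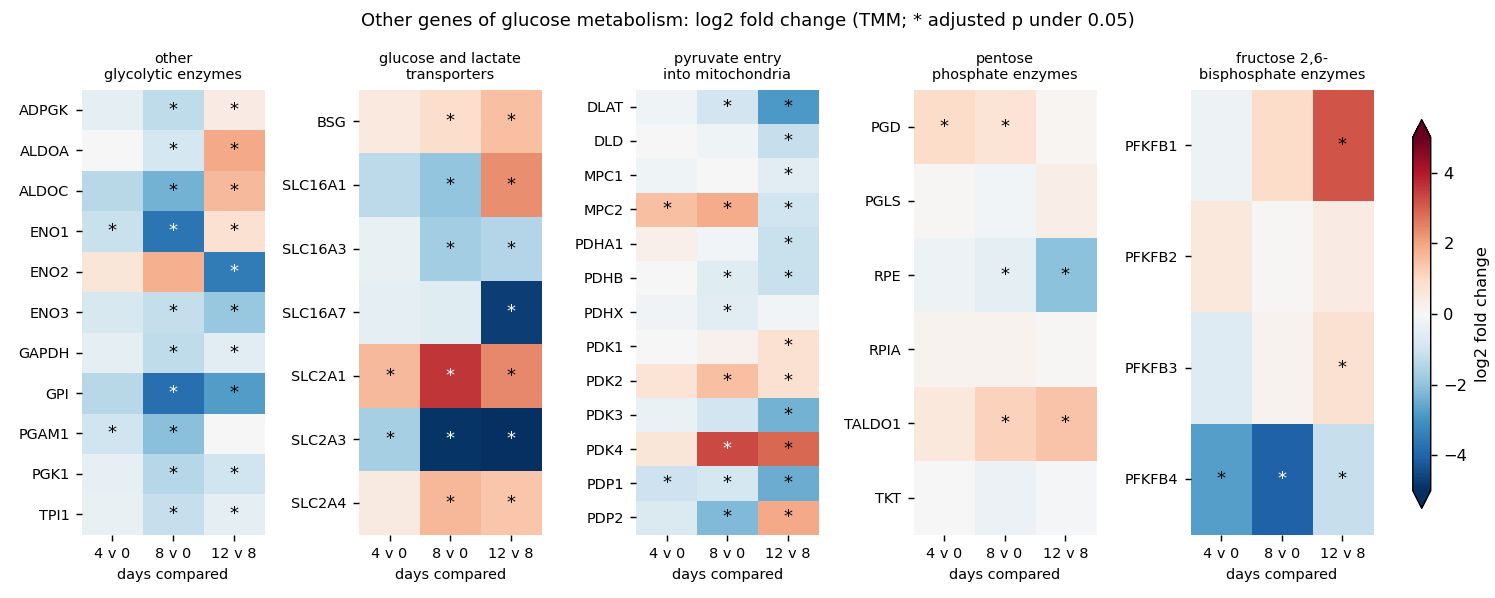
Log2 fold change (TMM) of other genes of glucose metabolism that reached 1 TPM in some library, by list, in the comparisons of day 4 with day 0, day 8 with day 0 and day 12 with day 8, with red for higher, blue for lower and an asterisk where adjusted p is under 0.05. SLC2A1 is red in all 3 comparisons. The other glycolytic enzymes are mostly blue on day 8, with 10 of 13 tested called lower, beside 19.4% of all genes tested.

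The genes with the most similar course to 3 of the members were looked up among 7547 genes with a mean of at least 10 TPM, by Pearson's r of log2 CPM over the 20 libraries, which share their days. Closest to BPGM were NUDT4, VEZF1, OPTN, NUDT4B and YPEL4, with r of 0.993 to 0.994, where NUDT4 and NUDT4B are near-identical copies. Closest to PKLR were INTS2, EXOSC10, TARBP1, LMNB2 and MYH10, with r of 0.991 to 0.992. Closest to PKM were ANXA2, NANS, LITAF, ELMO1 and VASP, with r of 0.958 to 0.971.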

How the data were processed

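RNA of HUDEP-2 cells was sequenced on 10 days with 2 libraries each (TruSeq Stranded mRNA). Per the labels, the authors used Trimmomatic 0.38, HISAT2 2.1.0 and StringTie 2.1.3b with hg38. The deposited tables hold read counts and TPM for 170322 RefSeq transcripts, the TPM scaled by length and library by the authors. Of 63 value columns, 23 (FPKM, and day 0 columns repeated beside day 12) were not used. Whether counting used strand is not given in the sources used here. Counts and TPM were summed by gene symbol. Tests used edgeR 4.0.16 (glmQLFit, TMM, filterByExpr) on all 20 libraries with 1 coefficient a day, over 16784 genes and separately 75285 transcripts. The study calls its day 0 and day 8 libraries biological replicates, and the labels do not say that libraries of a day came from separate cultures, so p-values measure only the spread between these libraries, part of which may be technical.

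The members and lists were chosen with earlier results of these data known. Named were all members, up to 3 genes of each list with the largest called increases and decreases on day 8 and day 12, GAPDH, SLC2A1 and leading transcripts. A gene of the lists is not reported here. Of genes with at least 20 counts over both libraries of a day, 61.7% to 76.1% differed beyond sampling noise, so the libraries were kept as separate samples. The fit was also run on simulated counts, with known changes in some genes on day 8. These had neither the rise of globin nor a difference between libraries A and B, so they cannot show how the fit handles either. Alternatives were DESeq2 1.42.0, limma 3.58.1 on log2(TPM + 1) and log2(TPM + 0.1), other scalings and filters, a block for the set of tables, and leaving out each library.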

Additional observations from a re-analysis of the deposited data

How the results depend on the processing

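No paired analysis was possible because the deposited columns carry no replicate number. A block for the set of tables was fitted instead. It treats library A as a single set, although its days come from different tables. With 2 libraries a day, a fit without 1 library assumes that the remaining one varies like the other days. Among changes of single members, 456 of 517 alternative values kept direction and side of the threshold, 21 lost the call, 19 gained one and 20 turned, and for other genes 723 of 797 and for transcripts 268 of 303 kept both. The transcript alternatives were chosen after seeing the data. Causes were not tested.

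Members called on day 4 (3 in the fit reported) were 7 with DESeq2, 1 with library totals, 5 with at least 10 counts in every library, 8 with the block and 1 without any single library. Member transcripts called on day 4 (0) were 8 with DESeq2, 1 on log2(TPM + 1) and 2 on log2(TPM + 0.1). On day 8 (7) they were 22, 20 and 21 with these, 0 with only the 2 days compared, 13 with the block and 3 to 5 without 1 library. Between day 12 and day 8 (15) they were 32 with DESeq2, 9 on log2(TPM + 1), 0 with only the 2 days and 6 with at least 10 counts, and over any days (17) 8 with at least 10 counts.

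HK1 was −0.041 on day 8 on both TPM scales, and between day 12 and day 8 −0.11 with library totals and −0.72 on both TPM scales. PFKL was −0.27 on day 8 with library totals and −0.50 on both TPM scales, and without 1 library it was −0.0017 to 0.64 on day 4 and −0.022 to 0.21 on day 8. PKLR on day 4 was −0.0077 with DESeq2, −0.060 with library totals, −0.030 with at least 10 counts, −0.17 on both TPM scales, −0.034 with the block, −0.18 in library set A alone and −0.33 to 0.27 without 1 library. PFKFB3 was −0.025 with library totals and −0.59 and −0.68 on TPM, TALDO1 −0.0098 on both TPM scales, and PDK2 −0.057 with library totals and −0.62 and −0.68 on TPM, between day 12 and day 8. Transcript NM_033496 was −0.065 on day 8 on both TPM scales, and between day 12 and day 8 −0.28 with library totals and −0.88 and −0.89 on TPM. NM_000188 was then −0.084 and −0.086 on TPM. NM_000298 on day 4 was 0.049 with upper-quartile factors, 0.019 with only the 2 days, 0.11 in library set B alone and −0.34 to 0.24 without 1 library.

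The change in share from day 0 to day 8, in percentage points, was 9.4 with counts and 4.05 with curated transcripts for HK1 (6.2), 1.65 with curated transcripts for PFKL (−1.9), −31.2 with curated transcripts for PFKP (−27.0), 41.4 with counts for PKLR (47.7) and −26.4 with counts for LDHA (−20.9). From day 8 to day 12 it was 0.0 for HK1 (0.15) and −5.24 for PFKP (−3.06) with curated transcripts.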
